A study of Mus musculus with 24 samples.

Results

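Bone marrow-derived macrophages (BMDM) that carry an HDAC9 knockout (KO) were compared with and without bacterial lipopolysaccharide (LPS). The libraries were taken by their labels: 4 KO libraries given LPS at 100 ng/ml for 6 h against 4 untreated KO libraries, 8 of the 24 libraries of the series. The other 16 come from wild-type (WT) cells and from cells labelled HDAC9 deltaCIS (dCIS, by the labels a deletion of a cis-regulatory element), each with 4 untreated and 4 LPS libraries. All cells were grown from mouse bone marrow in L929-conditioned medium, rested without it for 24 hours and then stimulated in serum-free medium, and their total RNA was captured on oligo-dT beads and sequenced. The labels give no sex, age or strain and do not say whether separate mice or cultures stand behind a group's libraries. A p-value therefore sets a difference only against the scatter among these libraries, and that scatter may be technical.

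Macrophages sense LPS through the surface receptor TLR4. One arm of the signal runs through the adaptor MyD88 and frees the NF-kB (Rel) factors from their IkB inhibitors, which turns on cytokine and chemokine genes. The other runs through the adaptor TRIF and the factor IRF3, leads to interferon beta, and through its receptor to the interferon-stimulated genes. HDAC9 is a class IIa histone deacetylase, a family with weak catalytic activity of its own that acts with MEF2 factors and corepressors. The question addressed here is what LPS changes in macrophages whose Hdac9 is disrupted.

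Hdac9 itself was measured at 1.31, 0.884, 0.841 and 1.13 CPM (reads of a gene over a TMM-scaled total) in the 4 untreated KO libraries and at 0.464, 0.0898, 0.334 and 0.319 CPM after LPS. These values lay far under those of WT, 11.2 ± 1.46 CPM untreated and 12.3 ± 2.83 CPM after LPS (mean ± SD, n = 4). The untreated and LPS values of the KO did not overlap (exact permutation test, two-sided, p = 0.0286, the smallest that 4 against 4 allows), with 90 counts in all untreated and 14 after LPS. In edgeR's quasi-likelihood test across all genes the residual transcript was lower after LPS (log2 fold change -1.76, SE 0.48, adjusted p = 0.000924). The deleted part of the gene is not named in the labels, so these reads say nothing of protein.

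All 10 macrophage markers examined were present, with a summed level of 22208 to 24673 CPM untreated and 27168 to 31421 CPM after LPS. This sum and the marker sums below are on the TMM scale and were not taken without it. Markers of mast cells and basophils summed to at most 0.167 CPM, with Cpa3, Mcpt8, Mcpt4 and Fcer1a at 0 counts in all 8 libraries, and the neutrophil markers Ly6g and Retnlg were also at 0 counts. The 10 neutrophil markers summed to 0.968 to 4.54 CPM untreated and 2.87 to 5.3 CPM after LPS. A wider list of 13, which adds Mmp8, Cxcr2 and Csf3r, summed to 113 to 158 CPM and 458 to 769 CPM. Of these sums Csf3r, the receptor for G-CSF, held 97.8, 135, 107 and 92.3 CPM and 524, 748, 418 and 448 CPM. Of 4 tested members of this list 2 were called higher and none lower, but 1 higher and 1 lower on library totals. Over all tested genes 30.9% were called higher and 30.7% lower. The 5 B-cell markers summed to 6.68 to 13 CPM untreated and 2.15 to 3.5 CPM after LPS, and the 7 fibroblast and endothelial markers to 1.41 to 2.61 CPM and 9.2 to 12.2 CPM, with Col1a2 and Col3a1 at 0 counts. For 8 T and NK cell markers the sums were 7.32 to 22.5 CPM and 11.3 to 17.1 CPM. Dendritic, erythroid and megakaryocyte, and osteoclast markers summed to at most 1.33, 5.59 and 14.5 CPM untreated. After LPS these sums were at most 2.88, 7.36 and 12.7 CPM, in that order. Wider lists of some of these types gave higher sums. The 8 genes of a wider B-cell list summed to 19.3 to 102 CPM untreated and 4.93 to 25.1 CPM after LPS. For 15 fibroblast and endothelial genes the sums were 35.9 to 58.9 CPM untreated and 76.5 to 104 CPM after LPS. For 10 osteoclast genes they were 222 to 293 CPM untreated and 109 to 220 CPM after LPS. The part of such cells in the results was not tested, and in these bulk libraries fewer cells of a type and less RNA per cell cannot be told apart. KO libraries held 15716390 to 19181707 counts untreated and 14636058 to 16570668 after LPS. The pair of KO libraries numbered 2 stood apart from the others and is described with its genes further on.

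The composition of the RNA changed with LPS, which bears on every direction reported. Genes called more than 4-fold higher held 4.28 to 5.24% of all counts untreated and 28.9 to 30.2% after LPS. The most abundant genes that together hold 50% of counts numbered 558 to 591 untreated and 326 to 353 after LPS. Values were scaled with TMM, which centres the bulk of genes (median log2 fold change over all tested genes 0.02). When counts were divided by library totals alone, the median moved to -0.80, so changes are given relative to the bulk of genes, and a list whose balance of calls turns on library totals is given with that count as well.

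Promoters of the genes that changed most were searched for motif letters, given as a description without a test. RefSeq promoter windows (GRCm38.p6, 250 bases before to 50 after a start) matched 7605 tested genes with exactly 1 window each. The letters searched on both strands were kB (GGGA and TTCC with any 2 bases between them, bound by Rel factors), ISRE (GAAA repeated with any 2 bases between, bound by interferon regulatory factors and STAT complexes), TGANTCA (AP-1), TGACGTCA (CRE), TTTCCCGC and TTTGGCGC (both E2F), CACGTG (E-box) and GAGGAAGT (PU.1). ISRE letters were in 13.3% of the 656 promoters of genes called more than 4-fold higher and in 2.12% of the 567 of genes called more than 4-fold lower, beside 3.52% of all 7605 tested genes and 3.58% of all 22862 windows. The kB letters were in 4.12% and 1.06% (tested genes 1.55%, all windows 1.41%), AP-1 letters in 9.76% and 5.11% (4.84%, 7.98%) and PU.1 letters in 6.86% and 4.76% (3.71%, 3.32%), in the same order. E2F letters were more frequent in the lower set: TTTCCCGC was in 1.52% of the higher and 4.23% of the lower set (2.37%, 1.12%) and TTTGGCGC in 0.61% and 1.59% (1.03%, 0.503%). For the CRE (1.52% and 2.65%) and the E-box (8.69% and 9.52%) both sets lay under the tested genes (3.37% and 10.4%), although the lower set for the CRE and both sets for the E-box lay above all windows (1.85% and 7.12%).

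Bases just upstream of the start are printed for 5 responding genes, read 5′ to 3′ on the gene's strand, because each holds 1 or more of these letter strings, which are in capitals. Il6 (chr5:30013034-30013113, plus strand) and Cxcl10 (chr5:92348890-92349114, minus strand) encode a cytokine and a chemokine, Gbp5 (chr3:142496754-142496933, plus strand) and Rsad2 (chr12:26456453-26456582, minus strand) encode interferon-induced proteins, and Cdca7 (chr2:72476129-72476218, plus strand) encodes a cell cycle protein that fell. The capitals are kB in Il6, then ISRE, kB and AP-1 in Cxcl10, ISRE and kB in Gbp5, ISRE and AP-1 in Rsad2, and E2F in Cdca7, with no base shared by a pair of motifs.
Il6: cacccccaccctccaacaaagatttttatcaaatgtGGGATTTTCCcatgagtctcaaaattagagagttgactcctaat
Cxcl10: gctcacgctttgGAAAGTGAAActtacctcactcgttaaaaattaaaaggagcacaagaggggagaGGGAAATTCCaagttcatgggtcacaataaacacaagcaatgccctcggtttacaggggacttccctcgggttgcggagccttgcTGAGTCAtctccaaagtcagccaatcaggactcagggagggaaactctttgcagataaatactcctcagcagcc
Gbp5: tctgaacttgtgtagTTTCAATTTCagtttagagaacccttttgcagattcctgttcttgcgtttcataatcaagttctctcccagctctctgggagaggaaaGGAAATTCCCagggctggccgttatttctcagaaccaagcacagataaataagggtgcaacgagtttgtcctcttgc
Rsad2: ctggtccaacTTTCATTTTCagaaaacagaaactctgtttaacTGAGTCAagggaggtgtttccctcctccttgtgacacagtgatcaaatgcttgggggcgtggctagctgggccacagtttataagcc
Cdca7: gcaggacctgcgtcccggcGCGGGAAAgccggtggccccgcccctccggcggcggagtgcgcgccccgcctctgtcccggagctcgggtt
The kB letters began 44 bases before the start in Il6, 159 in Cxcl10 and 77 in Gbp5, and the ISRE letters 213, 165 and 120 bases before it in Cxcl10, Gbp5 and Rsad2. A match describes letters and shows no binding.

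LPS changed the level of most expressed genes in the KO. Of 14757 genes tested, 9085 (61.6%) passed an adjusted p of 0.05 in edgeR's quasi-likelihood test and are called here, 4558 higher (30.9%) and 4527 lower (30.7%). On library totals the split was 2044 higher (13.9%) and 9494 lower (64.3%), and 970 genes called higher with TMM were called lower there. The counts of gene lists below are to be read beside these shares over all tested genes. More than 2-fold changes numbered 2507 higher (17.0%) and 2585 lower (17.5%), and more than 10-fold changes 530 and 298. The 4 untreated and 4 LPS libraries did not overlap in 8700 genes (59.0%), 8208 of them called.

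**Figure D1:**
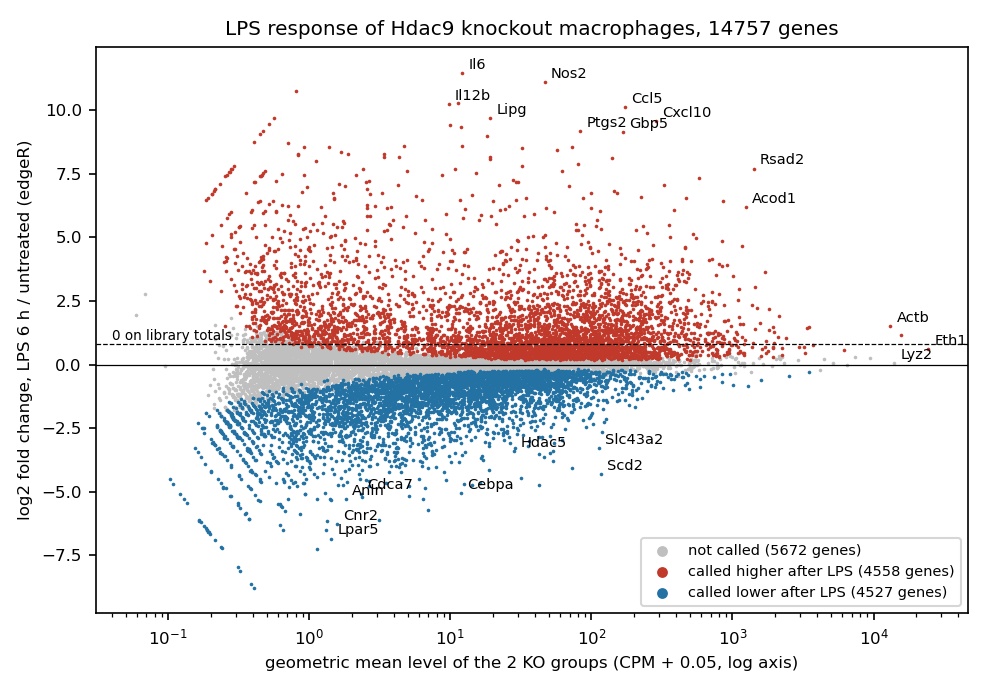
Each point is 1 of 14757 tested genes, with its log2 fold change (LPS 6 h over untreated, KO, edgeR) against the geometric mean of its levels in both groups (CPM + 0.05, log axis). Red points are the 4558 genes called higher and blue points the 4527 called lower, and the dashed line marks where the median gene's change on library totals would be 0, so that red points under it lie lower when no composition scaling is used.

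Among the largest rises were genes of secreted proteins that were almost silent before LPS. Il6, the fever and acute-phase cytokine, was at 0.0968, 0.523, 0.148 and 0 CPM untreated and 498, 607, 699 and 636 CPM after LPS. It was almost absent before LPS and high in all 4 libraries after it (log2 fold change 11.48, SE 0.59, adjusted p = 8.12e-19). Il12b, the shared subunit of IL-12 and IL-23, had 0.242, 0.322, 0.396 and 0.0469 CPM untreated and 266, 396, 309.6 and 288 CPM after LPS (log2 fold change 10.24, SE 0.47, adjusted p = 3.06e-19). Cxcl9, a chemokine for T cells, went from 0.294 to 379 CPM on average and Ccl5 from 5.13 to 5748 CPM. All of these genes were low in every untreated library and high in every LPS library. The rule that picked the largest rises, falls, gains and losses required groups without overlap.

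Nos2, the inducible nitric oxide synthase, was at 0.194, 3.09, 0.198 and 0.235 CPM untreated and 2651, 1845, 2362 and 2025 CPM after LPS (log2 fold change 11.11, SE 0.51). Number 2 held most of its untreated reads, and the groups were still far apart. Lipg, an endothelial-type lipase, had 0.484, 1.13, 0.594 and 0.329 CPM untreated and 624, 497, 499 and 548 CPM after LPS, an 856-fold ratio of means. The serine protease inhibitors Serpina3g and Serpina3f rose from 0.347 to 246 CPM and 0.436 to 291 CPM in that order, and Lhx2, a homeobox factor, from 0.209 to 84.1 CPM. Ptx3, a soluble pattern recognition protein, and Fst, the activin antagonist follistatin, had no count in any untreated KO library and 283 and 244 counts after LPS, at least 177-fold and 152.5-fold higher if 3 counts in the untreated group are taken as the floor. Angpt1, a ligand of the Tie2 receptor, had 2 counts before and 528 after LPS, a ratio of 495 (95% counting interval 136.4 to 4098).

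Measured as a gain of CPM, antiviral, chemokine and cytoskeletal transcripts were among the largest. Rsad2, the antiviral enzyme viperin, had 99.1, 89.5, 140.2 and 60.1 CPM untreated and 19970.0, 20571, 20276 and 20888 CPM after LPS. The 4 LPS values lay close together, and its rise was 210.1-fold (log2 fold change 7.71, SE 0.20, adjusted p = 6.58e-19). Its neighbour Cmpk2, a mitochondrial nucleotide kinase, went from 45.7 to 7337 CPM, Ifit2 from 91.6 to 7975 CPM, Cxcl10 from 10.3 to 7909 CPM and Ccl3 from 233 to 5864 CPM. Actb, cytoskeletal actin, rose from 7779.6 to 22239 CPM (log2 fold change 1.52, and 0.69 on library totals). Fth1, the ferritin heavy chain, had 18127, 15770.2, 22696 and 22183 CPM untreated and 27202, 29466, 32176 and 32132 CPM after LPS. Its rise of 0.62 on the log2 scale (SE 0.16, adjusted p = 0.00153) turned to -0.20 on library totals.

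**Figure D2:**
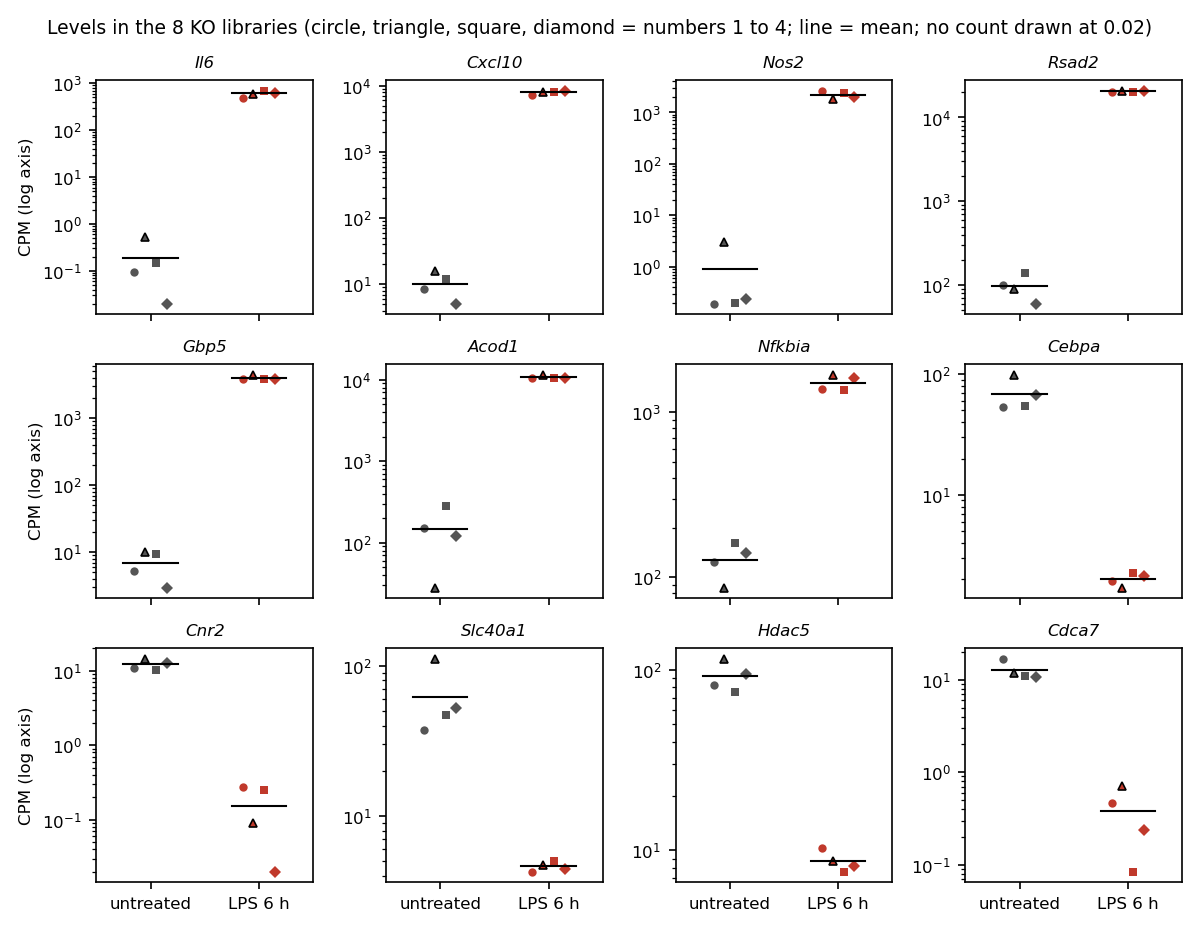
Level (CPM, log axis) of 12 genes in the 4 untreated (grey) and 4 LPS (red) KO libraries, with 1 symbol per library number and a line at the mean. In every panel the groups lie apart, and the untreated library number 2 lies away from the other 3 for Nos2 (higher), Acod1 (lower) and Slc40a1 (higher); libraries without a count (Il6 untreated 4, Cnr2 after LPS 4) are drawn at the foot of the panel.

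The TLR4 pathway itself shifted. Of 23 receptor and adaptor genes, 18 were called higher and 4 lower (median log2 fold change 0.74), but 7 higher and 8 lower on library totals. Myd88 had 76.7, 66.7, 81.3 and 80.9 CPM untreated and 457, 522, 448 and 496 CPM after LPS (log2 fold change 2.65, SE 0.09, adjusted p = 1.68e-18). Irak2 and Tbk1, kinases of the 2 arms, rose from 70.7 to 338 CPM and 88.6 to 310.1 CPM, and Ikbke, a kinase that phosphorylates IRF factors, from 341 to 1016 CPM. The groups did not overlap for any of these. The kinases Irak1 and Irak4 fell from 76.8 to 44.4 CPM and 42.3 to 28.1 CPM, and Tab1, a partner of the kinase TAK1, from 17.4 to 7.44 CPM. Map3k7, which encodes TAK1, was at 51.6 ± 1.62 CPM and 51.8 ± 2.44 CPM (not called).

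Among 11 Rel factors and IkB inhibitors 10 were called higher and none lower (median log2 fold change 2.35, and 1.53 on library totals). Nfkbia, the inhibitor IkB alpha, was at 124, 86.5, 161 and 140.4 CPM untreated and 1384, 1688, 1358 and 1622 CPM after LPS. Its rise was 11.8-fold (log2 fold change 3.57, SE 0.20, adjusted p = 1.83e-13). Nfkb1 and Nfkb2, the precursors of p50 and p52, rose from 124 to 817 CPM and 91 to 751 CPM in that order, and Nfkbie and Nfkbib, further inhibitors, by 3.20 and 3.00 on the log2 scale. Nfkbid, a nuclear IkB protein, had 16.5 ± 3.41 CPM untreated and 14.5 ± 2.16 CPM after LPS and was not called.

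Inhibitors of inflammatory signalling rose with it: 20 of 26 brake genes were called higher and 3 lower. Socs1, which blocks JAK kinases, had 1.16, 1.77, 1.48 and 1.03 CPM untreated and 131, 153, 129 and 154 CPM after LPS (log2 fold change 6.68, SE 0.20, adjusted p = 6.47e-20). Cd274, the ligand PD-L1, rose from 88.5 to 3133 CPM, and the mRNA-destabilising protein Zfp36 from 151 to 1441 CPM. Dusp2, a MAP kinase phosphatase, went from 2.12 to 125 CPM. Each of these was higher in all 4 LPS libraries than in any untreated one. Inpp5d, the lipid phosphatase SHIP1, fell from 267 ± 16.4 to 55.9 ± 13.2 CPM (log2 fold change -2.26, SE 0.13).

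Of 22 genes listed as immediate early factors, not all of them transcription factors, 13 were called higher and 5 lower after 6 h. On library totals 10 were higher and 8 lower. Batf2, an interferon-responsive AP-1 family factor, rose from 5.41 to 159.7 CPM and had the smallest p of all tested genes (log2 fold change 4.89, SE 0.10, adjusted p = 2.76e-21). Junb and Klf6 rose by 2.34 and 2.19 on the log2 scale. Of the 5 called lower, Egr2, an early growth response factor, had the largest fall, from 19.3 to 5.82 CPM.

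Cytokine genes gave 20 called higher of 22 tested and none lower (median log2 fold change 4.98). Tnf, the prototype inflammatory cytokine, was at 124, 66.6, 119 and 108 CPM untreated and 1729, 2371, 1663 and 1713 CPM after LPS. Il1b, the precursor of interleukin-1 beta, was at 2.71, 1.73, 5.89 and 1.83 CPM untreated and 912, 1025, 1131 and 1168 CPM after LPS, a 348-fold ratio (log2 fold change 8.46, SE 0.38, adjusted p = 8.01e-15). Both were apart in all 8 libraries. Il10, the anti-inflammatory cytokine, rose from 6.88 ± 2 to 81.4 ± 13.6 CPM, Il27 from 0.583 to 228 CPM, and Tnfsf10 (the death ligand TRAIL) and Tnfsf15 from 1.88 to 253 CPM and 1.49 to 105 CPM. Ifnb1, interferon beta, was scarce even after LPS, with 2 counts in all untreated and 120 counts in all LPS libraries, a ratio of 112.5 (95% counting interval 30.47 to 939.7). Tgfb1, the precursor of transforming growth factor beta 1, was at 572 ± 47.4 and 588 ± 68.1 CPM (not called).

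Chemokine genes gave 17 called higher of 20, none lower, with a median of 4.39. Cxcl10, which draws T and NK cells, had 8.38, 15.7, 12 and 5.12 CPM untreated and 7149.8, 8097, 7991 and 8399 CPM after LPS (log2 fold change 9.58, SE 0.25, adjusted p = 1.88e-18). Ccl3, an inflammatory chemokine of macrophages, had 249, 165, 271 and 247 CPM untreated and 4985, 6532, 5917 and 6022 CPM after LPS. Both rose in every library, Cxcl10 by 768-fold and Ccl3, already present before LPS, by 25.2-fold. Ccl8 rose from 0.337 to 47 CPM, while Ccl6 had 403 ± 50.3 and 439 ± 70.5 CPM and was not called. Of 13 chemoattractant receptors 9 were called higher and 2 lower, and 5 higher and 4 lower on library totals. Ccrl2, a chemerin-binding receptor, rose from 6.69 to 431 CPM and the formyl peptide receptors Fpr1 and Fpr2 by 2.23 and 2.93 on the log2 scale, and Cxcr4 fell from 16 to 1.02 CPM.

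The inflammasome cleaves pro-interleukin-1 beta and gasdermin D. Its sensors, caspases and substrates gave 16 called higher and 4 lower of 21, and 10 higher and 8 lower on library totals. Nlrp3, a sensor of cell damage, was at 67.4, 55, 63.3 and 54.3 CPM untreated and 807, 895, 742 and 764 CPM after LPS (log2 fold change 3.74, SE 0.16, adjusted p = 6.97e-16). Casp1 and Casp4, the inflammatory caspases, rose from 84.4 to 528 CPM and 27.6 to 404 CPM in that order, the DNA sensor Aim2 from 27.1 to 166 CPM and the cytokine Il18 from 5.64 to 163 CPM. All 4 LPS libraries exceeded the untreated ones for these genes. Not all sensors followed: Nlrp1b fell from 26.6 to 3.62 CPM and Nlrc4 from 12.4 to 6.32 CPM, and so did P2rx7, the ATP-gated channel that triggers NLRP3, from 83 ± 21.4 to 25.1 ± 3.94 CPM.

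Genes of small inflammatory mediators moved in both directions. Ptgs2, the cyclooxygenase COX-2, was at 3.83, 3.78, 3.81 and 2.35 CPM untreated and 2146, 1891, 2047 and 1879.8 CPM after LPS (log2 fold change 9.17, SE 0.28, adjusted p = 8.13e-18), with no overlap. Pla2g4a, which frees arachidonic acid, and Ptges, a prostaglandin E synthase, rose by 3.34 and 3.07, whereas Alox5ap and Lta4h, on the leukotriene branch, fell by 0.50 and 0.90 on the log2 scale. Over 16 tested prostaglandin and leukotriene genes, receptors among them, 6 were called higher and 7 lower. On library totals 4 were higher and 9 lower. Over all tested genes 30.9% were called higher and 30.7% lower. For nitric oxide, the arginine transporter Slc7a2 rose from 1.08 to 204 CPM and Gch1, which makes the cofactor tetrahydrobiopterin, from 20.2 to 291 CPM, beside Nos2. Srm, spermidine synthase, fell from 37.8 to 11.5 CPM.

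The interferon-stimulated antiviral list rose almost whole, with 42 of 43 called higher, none lower, and a median log2 fold change of 3.63 (2.81 on library totals). Ifit2, which binds viral RNA, had 88.6, 118, 106 and 53.5 CPM untreated and 7778, 9070.1, 7753 and 7299.6 CPM after LPS (log2 fold change 6.44, SE 0.18, adjusted p = 1.14e-18). Isg20, an exonuclease, rose from 5.01 to 299.5 CPM, Herc6 from 21.9 to 461 CPM, Slfn5 from 300.5 to 3387 CPM and Parp9 from 62 to 561 CPM. Rnf213, a large ubiquitin ligase, had 585, 382, 560.2 and 389.8 CPM untreated and 7196, 5956, 5820.2 and 5109.7 CPM after LPS. Ifitm6, at 4.19 ± 1.04 and 6.11 ± 0.644 CPM, was the member not called (adjusted p = 0.0594); it passed with libraries of the same number paired (adjusted p = 0.024) and without untreated library 3 (log2 fold change 0.70).

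All 16 tested guanylate-binding proteins and immunity-related GTPases, which attack the vacuoles of intracellular microbes, were called higher, the list with the highest median here (6.48). Gbp5 had 5.33, 10.2, 9.55 and 2.96 CPM untreated and 3826, 4452, 3839 and 3790.5 CPM after LPS, a 568-fold ratio (log2 fold change 9.14, SE 0.23, adjusted p = 4.5e-19). Gbp4 went from 0.763 to 409.6 CPM, Gbp2 from 28.2 to 3822 CPM, Gbp3 from 13.4 to 1549 CPM and Gbp6 from 1.21 to 107 CPM. The lowest LPS library exceeded the highest untreated library in each. Members of this family, like those of the Ifi200 and Serpina3 families, have near-identical copies, and how the counting split reads among copies is not given.

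Sensors of foreign nucleic acid gave 17 called higher and 1 lower of 18. Ifih1, the RNA sensor MDA5, rose from 52.4 to 2385 CPM, and the DNA-binding proteins Ifi205, Ifi204 and Mndal from 3.73 to 1389.6 CPM, 124 to 2103 CPM and 77.8 to 1255 CPM. The one that fell was Mavs, the mitochondrial adaptor on which MDA5 signals, at 37.1, 39.3, 40.1 and 40.8 CPM untreated and 13.2, 14.6, 15.4 and 16 CPM after LPS (log2 fold change -1.41, SE 0.15, adjusted p = 5.84e-09). Its groups did not overlap. Among 23 IRF, STAT and Janus kinase genes 18 were called higher and 3 lower. Irf7 rose from 63.4 to 2050.4 CPM, Irf1 from 34.2 to 501 CPM, Stat2 and Stat3 from 134 to 1191 CPM and 93.6 to 785 CPM, and Jak2 from 40.7 to 735 CPM. Ifngr1, the ligand-binding chain of the interferon gamma receptor, fell from 127 ± 35.7 to 43.1 ± 10.3 CPM.

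Antigen presentation on MHC class I rose, with 20 of 22 called higher and none lower. Tap1, a peptide transporter, went from 65.9 to 952 CPM and Nlrc5, the class I transactivator, from 46.1 to 786 CPM. Of the co-stimulatory molecules, Cd40 had 12.1, 11.9, 19.1 and 15.4 CPM untreated and 1479, 1639.9, 1584 and 1568 CPM after LPS (log2 fold change 6.75, SE 0.14, adjusted p = 5.84e-21), and Cd86 went from 38.3 to 352 CPM. Over the 14 genes of class II and co-stimulation 11 were called higher and 1 lower.

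Transcription factors that set macrophage identity moved in both directions: 18 of 31 were called higher and 11 lower, and 8 and 15 on library totals. Cebpa, a factor of myeloid differentiation, was at 53.5, 98.7, 54 and 66.8 CPM untreated and 1.95, 1.71, 2.26 and 2.15 CPM after LPS. It fell in every library, 33.8-fold on average (log2 fold change -5.07, SE 0.26, adjusted p = 1.13e-15), while its relatives Cebpb and Cebpd rose from 85.3 to 317 CPM and 52.8 to 198 CPM in that order. Pparg, the fatty acid receptor of lipid-handling macrophages, fell from 33.2 to 6.59 CPM, Tfeb, a regulator of lysosome genes, from 34.8 to 6.52 CPM, and Bhlhe41 from 86 to 18.3 CPM. Irf8 rose from 115 to 534 CPM. Of 26 macrophage identity genes 11 were called higher and 6 lower, but 2 higher and 17 lower on library totals.

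Some receptors of the cell surface were lost and others gained. Cnr2, the cannabinoid receptor CB2, had 11, 14.5, 10.2 and 12.9 CPM untreated and 0.278, 0.0898, 0.251 and 0 CPM after LPS (log2 fold change -6.26, SE 0.60, adjusted p = 1.11e-13). Lpar5, a lysophosphatidic acid receptor, had 11.6, 17, 10.9 and 13.4 CPM untreated and 0, 0.0898, 0.167 and 0.159 CPM after LPS. Both were close to silent after LPS. Gpr183, a receptor for oxysterols, and S1pr1, a sphingosine-1-phosphate receptor, fell from 13.7 to 0.362 CPM and 43.1 to 2.98 CPM. Rasgrp3, an activator of Ras, had 980 counts untreated and 3 after LPS, a ratio of 174.2 (95% counting interval 59.44 to 846.2). In the other direction, Lpar1 rose from 0.14 to 30.1 CPM and Adora2a, the adenosine receptor that restrains inflammation, from 1.18 to 71.4 CPM. Over 26 receptors of this class 11 were called higher and 8 lower, but 7 higher and 14 lower on library totals.

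Of 28 scavenger and phagocytic receptors 16 were called higher and 7 lower, but 9 higher and 12 lower on library totals. The activating immunoglobulin receptors Fcgr1 and Fcgr4 and the inhibitory Fcgr2b rose from 192 to 1515 CPM, 57 to 606 CPM and 113 to 1003 CPM. Axl, a receptor for apoptotic cells, rose from 9.95 to 172 CPM. Scarb1, which takes up lipoprotein cholesterol, and Lrp1, an endocytic receptor, fell by 1.63 and 0.82 on the log2 scale. For migration, the adhesion molecule Icam1 rose from 117 to 1448 CPM and the collagenase Mmp13 from 22.9 to 2178 CPM. Itgb3 fell from 6.12 to 0.946 CPM and Plau, urokinase, from 186 to 40.8 CPM. C3, the central complement protein, rose from 164 to 2805 CPM.

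In intermediary metabolism some single genes changed strongly. Acod1, which makes the antimicrobial metabolite itaconate, had 151, 28, 282 and 119 CPM untreated and 10422, 11513, 10485 and 10461 CPM after LPS. The LPS libraries lay close together, while the untreated ones ranged widely, number 2 being lowest (log2 fold change 6.21, SE 0.44, adjusted p = 1.63e-10). Glycolysis and pentose phosphate genes gave 8 called higher and 6 lower of 30, and 8 and 18 on library totals. Tricarboxylic acid cycle genes with Acod1 gave 7 and 10 of 29, and 1 and 27 on library totals. Over all tested genes 30.9% were called higher and 30.7% lower, so neither count is read as a result about its list. Pfkfb3, which makes the allosteric activator of phosphofructokinase, rose from 50.2 to 511 CPM, Slc2a6, a hexose transporter, from 40.2 to 629.5 CPM, and Hk3 from 278 to 1052 CPM. Pfkfb4, of the same family as Pfkfb3, fell from 34.9 to 9.24 CPM. In the tricarboxylic acid cycle list Idh1 and Aco1, both cytosolic enzymes, fell from 190.1 to 63.4 CPM and 71.1 to 34.9 CPM in that order.

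In lipid synthesis more genes were called lower than higher, beside 30.9% higher and 30.7% lower over all tested genes. Scd2, a stearoyl-CoA desaturase, had 504, 369, 451 and 765 CPM untreated and 23.9, 26.4, 16.9 and 36.9 CPM after LPS (log2 fold change -4.32, SE 0.25, adjusted p = 4.03e-13). Elovl6, Fads1 and Acsl3, which elongate, desaturate and activate fatty acids, fell by 3.57, 2.58 and 2.70 on the log2 scale, and Acsl1 rose by 2.72. Fatty acid genes gave 7 called higher and 11 lower of 22, and 3 higher and 16 lower on library totals. Of 26 sterol genes 11 were called lower and 4 higher, and 21 lower and 1 higher on library totals. Dhcr7, the last enzyme of one branch of cholesterol synthesis, fell from 54.9 to 6.42 CPM, and Ch25h, which makes 25-hydroxycholesterol, rose from 0.716 to 154 CPM. Slc43a2, an amino acid transporter, fell from 355 ± 108 to 36 ± 3.57 CPM.

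Of 17 iron handling genes 7 were called higher and 7 lower, and 4 higher and 10 lower on library totals. Slc40a1, the iron exporter ferroportin, had 37.1, 111, 46.7 and 52.5 CPM untreated and 4.27, 4.76, 5.02 and 4.47 CPM after LPS (log2 fold change -3.74, SE 0.29, adjusted p = 2.61e-11). Lcn2, which captures bacterial siderophores, rose from 16.4 to 281 CPM and Cp, the ferroxidase ceruloplasmin, from 57.3 to 777 CPM. The transferrin receptor Tfrc fell from 232 to 133 CPM. Among genes against oxidative stress, Sod2 and Prdx5 rose from 329.7 to 1716 CPM and 169 to 974 CPM in that order, Cat (catalase) fell from 356 to 175 CPM, and Hmox1 was at 1223 ± 439.8 and 1183 ± 282 CPM, not called. The survival genes Bcl2a1b and Bcl2a1d, near-identical copies whose reads may be split, rose from 8.36 to 111 CPM and 6.22 to 141 CPM in that order, and the cell death gene Bcl2l11 (Bim) fell from 71.4 to 25.3 CPM.

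Most genes of DNA replication and mitosis fell. Of 44 replication and S phase genes 37 were called lower and 3 higher (median log2 fold change -2.04), and of 41 mitosis genes 35 were lower and 1 higher (median -2.62). Mcm2, a subunit of the replicative helicase, had 47.8, 27.7, 31.7 and 31.5 CPM untreated and 5.84, 3.05, 3.59 and 3.83 CPM after LPS (log2 fold change -3.09, SE 0.23, adjusted p = 4.83e-12). Anln, the cytokinesis protein anillin, had 16.2, 10, 8.91 and 6.85 CPM untreated and 0.371, 0.269, 0.251 and 0.159 CPM after LPS. Neither gene overlapped between groups. Cdca7, E2f2, Bub1b and Cdc25b fell from 12.7 to 0.376 CPM, 7.63 to 0.28 CPM, 10.2 to 0.634 CPM and 13.3 to 0.476 CPM. Tpx2, a spindle assembly factor, went against its list with 27.5, 17.4, 17.5 and 15.5 CPM untreated and 123, 142, 100.2 and 117 CPM after LPS (log2 fold change 2.63, SE 0.19, adjusted p = 1.38e-11), and Rfc3, a clamp loader subunit, rose from 11.4 to 32.5 CPM. Mki67 was at 84.8, 57.6, 47.6 and 38.1 CPM untreated and 38.5, 52.6, 28.1 and 25 CPM after LPS and was not called (adjusted p = 0.071). It passed with libraries of the same number paired (adjusted p = 0.00034), without untreated library 4 (log2 fold change -0.82) and without LPS library 2 (-0.91). The 30 cell cycle control genes did not share this fall, with 14 called higher and 12 lower (median 0.01), and 9 higher and 18 lower on library totals. Among them Ccnd2 (cyclin D2) rose from 20 to 482 CPM and the inhibitor Cdkn1a (p21) from 256 to 1382 CPM, and Cdk2 and Cdk4 fell from 21.4 to 3.33 CPM and 67.6 to 33.7 CPM.

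The other deacetylase genes were mostly lower. Of 18 deacetylase and sirtuin genes tested, Hdac9 among them, 12 were called lower and 2 higher. Hdac5, of the same class IIa as Hdac9, was at 82.2, 115, 75 and 95 CPM untreated and 10.3, 8.71, 7.61 and 8.21 CPM after LPS (log2 fold change -3.40, SE 0.15, adjusted p = 3.19e-16). Hdac4, also class IIa, fell from 18.1 to 5.68 CPM, and Hdac6 and Hdac10 of class IIb from 10.9 to 2.98 CPM and 11.5 to 4.65 CPM. Hdac1, of class I, rose from 29.4 ± 2.55 to 114 ± 14 CPM in all 4 libraries (log2 fold change 1.95, SE 0.09, adjusted p = 8.26e-16), and Hdac3, its class I relative, had 32.7 ± 1.77 and 32.7 ± 0.638 CPM (not called). The class IIa partners Mef2c and Mef2d fell from 65.7 to 14.7 CPM and 142 to 49.3 CPM, and Mef2a, at 142 ± 12.7 and 131 ± 11.8 CPM, was not called.

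Other chromatin and clock genes moved as well. Arid5a, an RNA-binding protein that stabilises inflammatory mRNAs, rose from 7.92 to 259 CPM, the DNA demethylase Tet2 from 51.4 to 275 CPM and Setdb2 from 8.28 to 104 CPM, and the maintenance DNA methyltransferase Dnmt1 fell from 127 to 30.3 CPM. Of 17 clock genes 12 were called lower and 2 higher. Npas2, a partner of BMAL1, had 359 counts untreated and 2 after LPS, a ratio of 95.73 (95% counting interval 26.31 to 793.5). Nfil3, a repressor of the clock output, rose from 8.67 to 47.7 CPM.

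Some abundant transcripts held their level relative to the bulk of genes. Lyz2, lysozyme M, was at 13372, 14152, 13968 and 13453 CPM untreated and 13372, 15201, 13901 and 14570.1 CPM after LPS. Psap, the lysosomal precursor prosaposin, was at 6330.1, 8580.0, 5744 and 5377 CPM untreated and 6589, 7485, 6054 and 5303 CPM after LPS. Gpnmb, a membrane glycoprotein of macrophages, had 5041 ± 695 and 5258 ± 747 CPM. The untreated and LPS values overlapped for each, with log2 fold changes of 0.05 (SE 0.11), -0.03 (SE 0.13) and 0.06 (SE 0.12), none called. On library totals the same values were -0.77, -0.86 and -0.77. The 74 ribosomal protein genes had a median of 0.17, with 16 called higher and 1 lower, and 72 lower on library totals. Nuclear oxidative phosphorylation genes had a median of 0.29, with 21 of 43 called higher and none lower, but 36 lower and 1 higher on library totals.

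**Figure D3:**
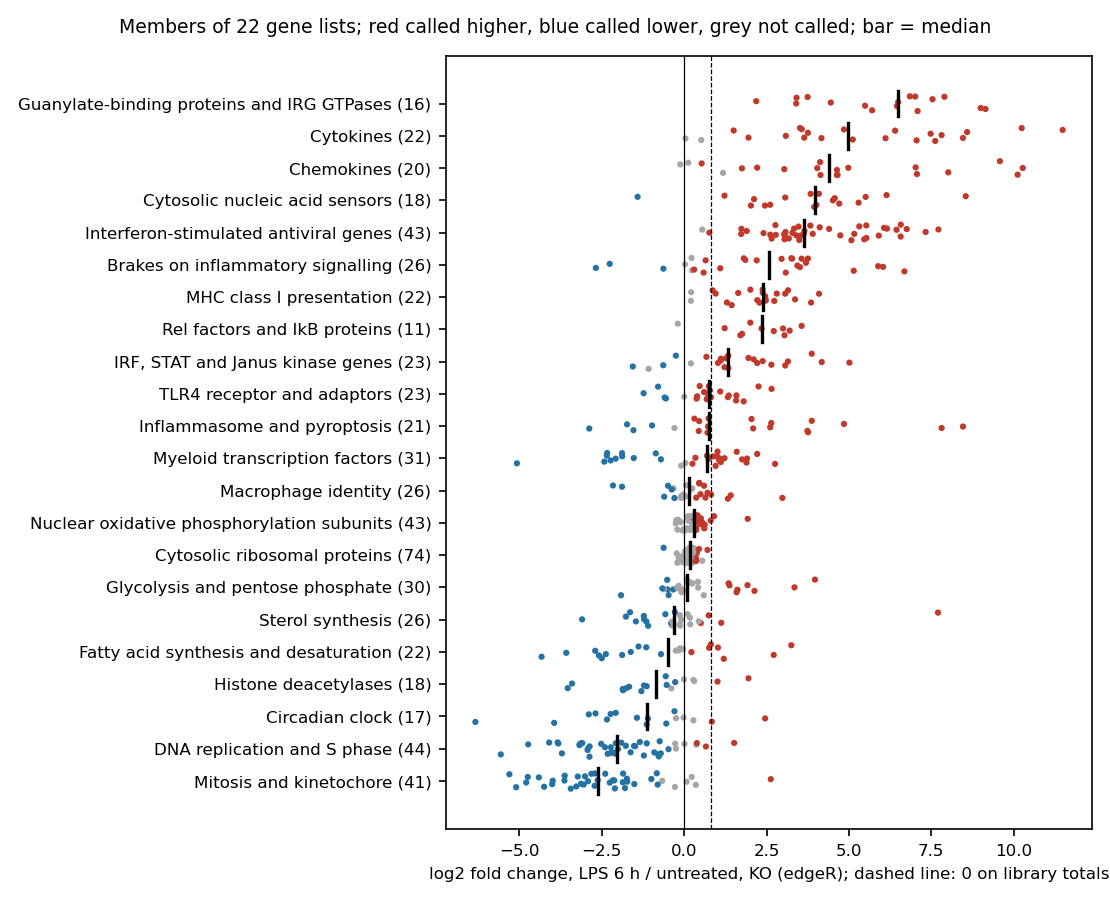
Each row is a gene list with its number of tested members; each point is a member's log2 fold change (LPS 6 h over untreated, KO, edgeR), red where called higher, blue where called lower, grey where not called, and the black bar is the median. The GTPase, cytokine and chemokine lists lie farthest right and the mitosis and S phase lists farthest left, and lists between 0 and the dashed line (0 on library totals) have a median under 0 when no composition scaling is used.

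The libraries numbered 2 stood apart from the other KO libraries, partly in the same genes before and after LPS. Of 5132 genes with at least 20 CPM in both groups, number 2 lay more than 2-fold from each of the other 3 libraries in 44 genes untreated and in 20 after LPS. In 15 genes this was so in both groups, above the others in 12 and below in 3. For each of numbers 1, 3 and 4 at most 1 gene stood apart in both groups. Selenop, a selenium transport protein, was at 866, 3649, 624 and 857 CPM untreated and 926, 2592, 649.9 and 757 CPM after LPS. Gas6, a ligand of Axl chosen after its values were seen, was at 182, 561, 160.3 and 255 CPM untreated and 118, 281, 75.7 and 109 CPM after LPS. Both were highest in number 2 under each condition, and Mmp9, a gelatinase, at 83, 29.5, 136 and 100.4 CPM untreated and 87.4, 40.2, 135 and 111 CPM after LPS, was lowest there. Ighm, the heavy chain of IgM, was also highest in number 2, at 24.1, 87.9, 12.4 and 25.3 CPM untreated and 4.17, 19.9, 1.84 and 2.23 CPM after LPS. Fam214a and St6gal1, among the largest falls, started from 13.6, 61.2, 9.9 and 11.8 CPM and from 22.7, 71.2, 19.3 and 24.6 CPM. Without both libraries numbered 2 the calls numbered 4285 higher and 4107 lower.

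**Figure D4:**
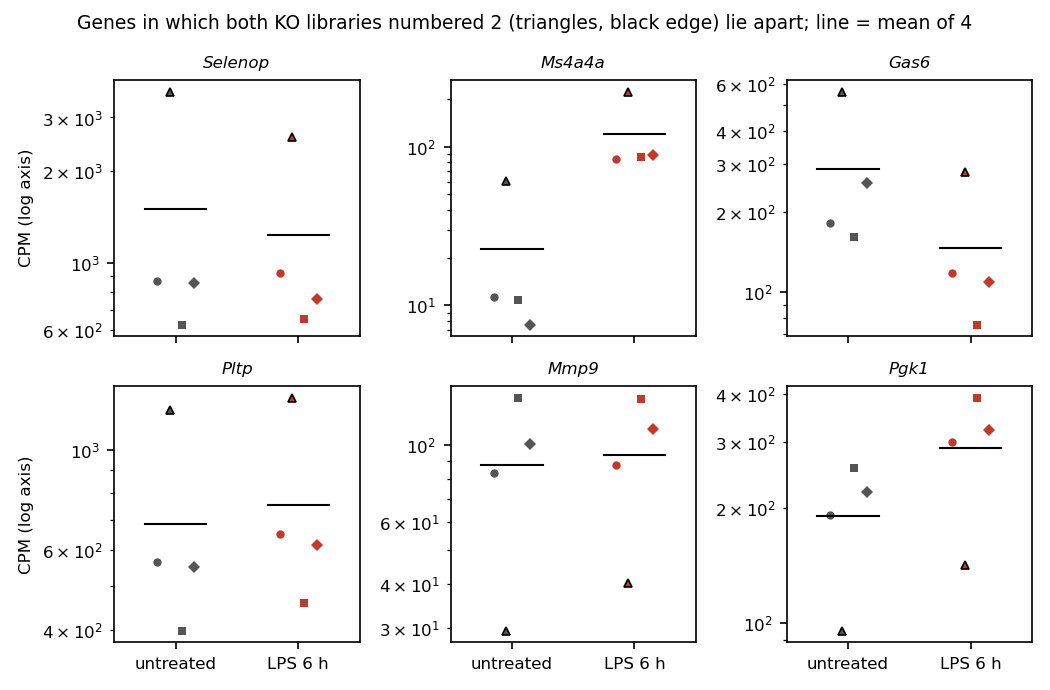
Level (CPM, log axis) of 6 genes in the 4 untreated (grey) and 4 LPS (red) KO libraries, with a line at the mean. Gas6 and Pgk1 were chosen after their values were seen. The libraries numbered 2 (triangles) lie above the other 3 for Selenop, Ms4a4a, Gas6 and Pltp and below them for Mmp9 and Pgk1, before and after LPS.

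The response of the KO was set against that of WT by testing the difference of the 2 log2 fold changes. Of 14757 genes, 3 (0.0203%) were called by edgeR's quasi-likelihood test, and 258 (1.75%) had an unadjusted p under 0.05. That share is smaller than a threshold of 0.05 gives where no gene differs. DESeq2 called 6, and edgeR called 3 without both KO libraries numbered 2. No member of any of the gene lists above was called in this difference. The median standard error of a difference was 0.26, and for 9538 genes (64.6%) the 95% interval of the difference lay within 2-fold in either direction. Among the 2278 genes changed more than 4-fold in the KO this held for 891 (39.1%). For the remaining genes these libraries do not bound a difference that closely.

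Inflammatory genes gave no called difference between KO and WT. The difference (KO minus WT, log2) was 0.20 for Il1b (SE 0.54), 0.35 for Nlrp3 (SE 0.23) and 0.26 for Tnf (SE 0.28). It was -0.16 for Il10 (SE 0.29), -0.37 for Nos2 (SE 0.77) and -0.42 for Cxcl10 (SE 0.35). Il1b reached 912, 1025, 1131 and 1168 CPM in KO and 1363, 561, 941 and 819 CPM in WT after LPS, and the groups overlapped.

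The genes called in the difference were Nol10, Adi1 and Rnf144a. Nol10, a nucleolar protein, was at 21.9, 16.4, 20.8 and 18.1 CPM untreated and 84.9, 96.3, 82.8 and 81.8 CPM after LPS in KO. In WT it had 20 ± 3.14 and 36.1 ± 1.2 CPM, so the rise was larger in KO (difference 1.31, SE 0.17, adjusted p = 0.000731). Adi1, which acts in methionine salvage, was at 42.3, 71.9, 38.1 and 45.6 CPM untreated and 23.8, 32, 18.7 and 24.6 CPM after LPS in KO and at 25.4 ± 2.35 and 4.58 ± 0.85 CPM in WT (difference 1.47, SE 0.25, adjusted p = 0.0163). Its level was lower after LPS in both genotypes, by less in KO, and higher in KO before LPS. This call was lost when any 1 of 7 libraries was left out (untreated KO 1 or 4, LPS KO 2, untreated WT 4, LPS WT 1, 2 or 3), with differences of 1.32 to 1.45. Rnf144a, a ubiquitin ligase, was at 0.92, 1, 0.742 and 1.22 CPM untreated and 0.742, 0.719, 0.418 and 0.159 CPM after LPS in KO and at 1.07, 0.512, 0.572 and 0.824 CPM and 4.82, 3.8, 2.9 and 3.31 CPM in WT (difference -3.26, SE 0.50, adjusted p = 0.00291). All 4 LPS libraries of WT exceeded every KO library, and its fall in KO (log2 fold change -0.95, adjusted p = 0.0325) lost its call without untreated library 2 or 4 or LPS library 3 or 4 (-0.64 to -0.94).

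All 3 genes lie on the chromosome of Hdac9 in the RefSeq table, which holds 470 of the 13504 tested genes matched by symbol (3.48%). Rnf144a is next to Rsad2 and Cmpk2 there, and neither of these was called in the difference (-0.26, SE 0.28, and -0.45, SE 0.24). Of 231 matched genes with an unadjusted p under 0.05 in the difference, 22 (9.52%) lie on that chromosome. The 3 called genes are among these 22, and the cause was not tested.

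Against the dCIS response, 4 genes (0.0271%) were called by edgeR and 1663 (11.3%) had an unadjusted p under 0.05. Nol10 and Rnf144a were called again, with 17.8 ± 2.2 and 33.3 ± 5.28 CPM for Nol10 and 0.894 ± 0.246 and 5.47 ± 1.4 CPM for Rnf144a in dCIS (differences 1.26 and -3.56, SE 0.17 and 0.49). Both comparisons use the same KO libraries. Lsm11, a component of the histone mRNA processing particle, rose more in KO (5.76, 5.83, 5.54 and 5.73 CPM untreated and 17.2, 19.8, 16.8 and 21.5 CPM after LPS) than in dCIS (7.48 ± 0.585 and 12.3 ± 1.9 CPM), and so did Med21, a Mediator subunit (18.1, 15.3, 19.6 and 16.3 CPM untreated and 45, 53.2, 56.2 and 54.1 CPM after LPS, against 16.9 ± 2.38 and 26.1 ± 4.69 CPM), each with an adjusted p of 0.0471. Leaving out 1 library ended the call of Lsm11 in 14 of 16 cases and that of Med21 in 12 of 16, with differences of 0.92 to 1.05 and 0.85 to 1.03. This count was unstable: without the untreated dCIS library number 2 it was 167, with libraries of the same number paired 158, and DESeq2 called 29, whereas leaving out any other single library gave 2 to 7. The LPS libraries 3 and 4 of dCIS had fewer genes with a count (17628 and 15997) than the KO libraries after LPS (20537 to 20874), and without this pair 3 genes were called.

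**Figure D5:**
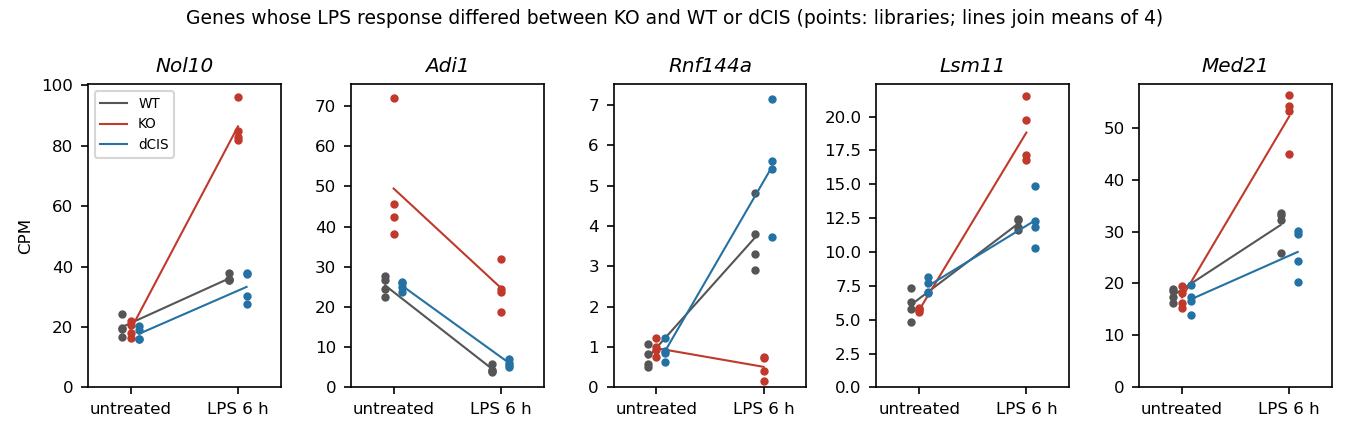
Level (CPM) of 5 genes untreated and after LPS in WT, KO and dCIS, with a point for each of 4 libraries per group and lines between group means. Nol10 rises to 81.8 to 96.3 CPM in KO against at most 37.9 CPM in the other genotypes, Adi1 stays higher in KO, and Rnf144a after LPS is at most 0.742 CPM in KO against at least 2.9 CPM in the other genotypes.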

How the data were processed

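The authors deposited raw read counts per gene for all 24 libraries as 1 table of 56941 gene identifiers, of which 51948 were given a symbol here. STAR, edgeR and the mm39 build are named in the submitters' processing notes; the annotation, strand setting and treatment of reads shared by copies or overlapping genes are not stated in any label or header seen here. Libraries were grouped by their labels. Counts were used as deposited. Genes were kept with filterByExpr (edgeR 4.0.16 in R 4.3.3, minimum count 10, minimum total 15), which left 14757, scaled with TMM, and fitted with the quasi-likelihood test over all 6 groups with no covariate. LPS against untreated in KO, and its differences from the WT and dCIS responses, were contrasts of that fit, adjusted by Benjamini-Hochberg over all tested genes, and called at an adjusted p of 0.05. CPM are scaled with TMM and compare a gene with itself only. The test was also run on simulated counts with few changed genes and unpaired libraries. That run does not check the scaling under a large change of composition, or the pairing.

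KO libraries of the same number deviated together (correlations 0.155, 0.296, 0.179 and 0.178), although the labels state no pairing. The correlations were 0.135, 0.15, 0.113 and 0.132 in WT and 0.069, 0.339, 0.258 and 0.0396 in dCIS. The main fit left the numbers out, and a fit with the number as a block was an alternative. The others were DESeq2 1.42.0, RLE size factors, library totals, other filters, the compared groups alone and leaving out each library. Library totals, leaving out both KO libraries numbered 2 and leaving out dCIS LPS libraries 3 and 4 were chosen after seeing the data. Depth limits low genes most, and counting intervals cover counting error only.

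The genes and the 53 lists were chosen with earlier results of these data known. Genes named are the 20 largest rises and falls and the 10 largest gains and losses of CPM without overlap, up to 5 called members per direction and 2 not called per list, the 10 most abundant genes that held their level, the 5 most variable per group, and those called in a difference or of prior interest there; all have 5 CPM or more where the rule on size applies. Sequences are from RefSeq windows of GRCm38.p6, another build than that of the counts.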

Additional observations from a re-analysis of the deposited data

Results flagged for a closer look

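In groups of 4 libraries the highest or lowest value was set against the other 3. In 37 groups of named genes a library lay far from the rest (gap over range above Dixon's 95% critical value), 9.34% of the groups tested. Some of these genes were named because they varied most within a group, and Gas6 and Pgk1 after their values were seen. The share is therefore not set against chance. Of the libraries far from the rest 26 were numbered 2. In the LPS KO library 1 this was Fcgr2b at 928 CPM and Lrp1 at 1188 CPM. In the LPS KO library 2 this was Gbp5 at 4452 CPM, Acod1 at 11510 CPM, Irak1 at 53.7 CPM, Klf6 at 1717 CPM, Tnf at 2371 CPM and Lta4h at 17 CPM. It was also Gbp2 at 4869 CPM, Gbp3 at 1766 CPM, Setdb2 at 123 CPM, Selenop at 2592 CPM, Ighm at 19.9 CPM and St6gal1 at 2.96 CPM. It was also Ms4a4a at 222 CPM. In the LPS KO library 3 this was Slc7a2 at 161 CPM. In the LPS KO library 4 this was Il10 at 102 CPM. In the untreated KO library 1 this was E2f2 at 11 CPM and Tpx2 at 27.5 CPM. In the untreated KO library 2 this was Nos2 at 3.1 CPM, Cxcr4 at 43.6 CPM, Nlrp1b at 48.8 CPM, P2rx7 at 115 CPM, Ifngr1 at 179.9 CPM and Irf8 at 159.6 CPM. It was also Slc43a2 at 517 CPM, Ccnd2 at 9.2 CPM, Selenop at 3649 CPM, Ighm at 87.9 CPM, Fam214a at 61.2 CPM and St6gal1 at 71.2 CPM. It was also Ms4a4a at 60.9 CPM. In the untreated KO library 3 this was Gbp2 at 41.2 CPM and Ifi205 at 5.74 CPM. In the untreated KO library 4 this was Ptgs2 at 2.35 CPM, Mndal at 60.5 CPM and Nfil3 at 9.62 CPM.

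The response of Nol10 (1.31), Adi1 (1.47) and Rnf144a (-3.26) differed between KO and WT in edgeR's test of the difference, and that of Nol10 (1.26), Med21 (0.97), Lsm11 (1.00) and Rnf144a (-3.56) between KO and dCIS, the values being differences of log2 fold changes, KO minus the other genotype.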

How the results depend on the processing

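Of 3366 values of the KO response of the 199 genes named under other settings, 7 lost and 26 gained a call, and 7 turned direction with a call, these last all on library totals: Fth1 (-0.20), Map3k7 (-0.82), Tgfb1 (-0.79), Ccl6 (-0.70), Lyz2 (-0.77), Gpnmb (-0.77) and Pltp (-0.70). A further 52 values, of 14 genes that were called neither way, changed sign without a call, also under other scalings and when libraries were left out, so these genes have no stable direction. On library totals 2044 genes were called higher and 9494 lower. Every other setting tried kept both counts within 1.5 times, with leaving out 1 library giving 4369 to 4427 higher and 4291 to 4411 lower. With libraries of the same number paired (the replicate block) 4827 genes were called higher and 4763 lower. The difference from WT had 3 called genes, 6 by DESeq2 and 12 with no filter, and 2 to 4 when 1 library was left out. The difference from dCIS had 4, and 29 by DESeq2, 2 with the compared groups alone, 2 on library totals, 164 with no filter and 158 with the replicate block, and 2 to 167 when 1 library was left out, 167 without untreated dCIS library 2. The cause was not tested. Among the genes named, pairing changed the calls of Ifitm6, Mki67 and Pgk1 in the KO response and of Adi1 in the difference from dCIS (1.09), and no other call. Depth limits genes of a few counts, such as Hdac9 and Ifnb1.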

Other observations

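Of 15 heat shock genes tested 7 were called higher and 1 lower in KO by edgeR, but 3 higher and 7 lower on library totals. Hspa1b, an inducible HSP70, was at 2.03, 1.89, 3.91 and 3 CPM untreated and 41.3, 57.2, 64.8 and 70.6 CPM after LPS (log2 fold change 4.44, SE 0.25, adjusted p = 5.37e-14). The unfolded protein response list gave 8 called higher and 10 lower of 28, near the shares over all tested genes (30.9% and 30.7%), and 1 higher and 23 lower on library totals. Eif2ak3, the sensor kinase PERK, fell from 28.2 to 5.48 CPM.

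Of 40 lysosomal genes 12 were called higher and 10 lower, and of 18 LXR target and cholesterol efflux genes 6 and 7. Over all tested genes 30.9% were called higher and 30.7% lower, so neither count is read as a result about its list. On library totals 2 lysosomal genes were higher and 32 lower, and 0 and 14 of the other list.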
